A study of Mus musculus with 4 samples.

Results

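The 10 genes examined belong to the pathway by which cyclic AMP holds the mouse oocyte in meiotic arrest, and were followed in oocytes with and without deletion of Dcaf13, which encodes a nucleolar protein of ribosome biogenesis. They are the receptors Gpr3 and Gpr12, the stimulatory G protein gene Gnas, the adenylyl cyclases Adcy3 and Adcy9, the phosphodiesterase Pde3a, and the protein kinase A subunits Prkaca, Prkacb, Prkar1a and Prkar2a. The genes were chosen by name, and all 10 were found among the 23235 genes of the deposited table. The 4 groups, with 1 library of 10 pooled oocytes each, were fully grown deletion, growing deletion, fully grown control and growing control. Control mice carried floxed Dcaf13 alleles (Dcaf13fl/fl), and deletion mice carried these alleles with Gdf9-Cre, a transgene that places Cre recombinase under the Gdf9 promoter, which is active in oocytes from early follicle growth. All mice were on a C57B6 background. The growing stage was taken at an age of about 14 days and the fully grown stage at about 23 days, from mice primed 48 h earlier with PMSG (5 IU), a gonadotropin that stimulates follicles, so stage, age and PMSG cannot be told apart. No group has a replicate, so each value is that of a single library, no test was run, and no comparison has an estimate of error. How many mice gave a pool is not given in the sources used here.

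Oocytes enter meiosis before birth and then wait in prophase until ovulation. In the mouse this arrest is maintained by cyclic AMP made in the oocyte itself: GPR3, a receptor that signals without a known need for ligand, acts through the stimulatory G protein on adenylyl cyclase, and cyclic AMP releases the catalytic subunits of protein kinase A from their regulatory subunits. The kinase keeps CDK1 inactive through WEE1B and CDC25B. PDE3A breaks cyclic AMP down, and cyclic GMP that enters from granulosa cells through gap junctions inhibits it until the ovulatory signal arrives.

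Levels are in FPKM, which divides the fragments of a gene by its transcript length and by the fragments mapped in that library. Summed FPKM lay between 649397 and 678437 per library, and 10469 to 11048 genes were at 1 FPKM or more. Sequencing depth is unknown, but the most common ratio between libraries among values under 0.5 FPKM put the other 3 libraries at 1.01 to 1.11 times the depth of growing control. The 12 oocyte markers examined were between 65.6 and 5079.5 FPKM. Dcaf13 stood at 38.9 FPKM in growing deletion against 96.1 in growing control, and at 64.0 FPKM in fully grown deletion against 160.2 in fully grown control, so its RNA was less but not absent. In the deposited table the symbols run in another sort order than the values, and the values were read against the symbols in byte order (digits, capitals, lower case). This is an inference from the data that was not checked with the submitters. It moved all 10 genes, by 1 to 91 rows. Within 250 rows of each gene, the smallest value above 0 of low genes fell with transcript length more steeply after re-pairing, with a Spearman correlation across genes from -0.40 to -0.11, against -0.16 to -0.091 as deposited. For the cyclases that window hardly separated the pairings (Adcy3, -0.11 after re-pairing and -0.11 as deposited; Adcy9, -0.12 and -0.091). With 600 rows on either side the values for Adcy3 were -0.21 and -0.068. That wider window takes in rows further off, so the re-pairing of Adcy3 and Adcy9 is less certain than that of the other members.

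Promoter sequence is shown for Gpr3, the main receptor gene by level, and for a catalytic and a regulatory subunit gene, since the factors CREB and ATF1 that protein kinase A phosphorylates bind the cyclic AMP response element. The stretches are from RefSeq, build GRCm38.p6, end before the annotated start, overlap no annotated exon and are on the strand of the gene. Capitals mark the element TGACGTCA, its shorter core TGACG and the CCAAT box, each on either strand. Gpr3 lies at chr4:133212537-133212636 (minus strand), Prkaca at chr8:83972878-83972977 (plus strand) and Prkar1a, upstream of 1 of its several starts, at chr11:109650839-109650919 (plus strand). That start of Prkar1a was picked because the full element lies before it, and the stretch was cut to show it. Its presence in the printed stretch was thus set in advance and is no result.
Gpr3: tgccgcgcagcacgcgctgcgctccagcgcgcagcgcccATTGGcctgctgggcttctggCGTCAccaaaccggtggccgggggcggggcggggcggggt
Prkaca: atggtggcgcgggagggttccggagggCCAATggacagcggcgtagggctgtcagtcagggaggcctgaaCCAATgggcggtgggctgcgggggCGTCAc
Prkar1a: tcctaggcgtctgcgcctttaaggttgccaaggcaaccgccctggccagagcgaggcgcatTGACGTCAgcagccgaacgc
Promoter windows of 250 bases before to 50 after a start were found for 9 of the 10 genes, 22 windows in all. The full element was in 2 of them, both of Prkar1a, and in 1.79% of the 32851 windows of all genes. The core on either strand, which is also counted inside each full element, was in 11 of the 22 windows, from 7 genes, and in 20.8% of all windows. The CCAAT box was in 8 of the 22 and in 37.4% of all windows, and the GC box GGGCGG on either strand in 12 of the 22 and in 35.7%. These are matches of letters, and which start an oocyte uses was not examined. Windows of 1 gene are not separate observations and may overlap, so a site may be counted more than once. The share of all genes with each motif was not counted.

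The 10 genes covered more than 3 decades of FPKM, with the G protein at the top and a cyclase at the bottom. By the mean of the 4 libraries the order was Gnas (202.6 FPKM), Prkar1a (26.1), Pde3a (25.5), Gpr3 (15.1), Prkaca (14.0), Prkar2a (9.93), Prkacb (2.75), Adcy9 (2.18), Gpr12 (0.497) and Adcy3 (0.0873). Gnas stood above every other member in all 4 libraries. The ranges over libraries overlapped between Prkar1a and Pde3a, between Gpr3 and Prkaca, between Prkaca and Prkar2a and between Prkacb and Adcy9, so the order within these pairs is not fixed by the data. Gnas ranked 617 among all genes by mean FPKM, Pde3a 3361 and Gpr3 4611.

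**Figure D1:**
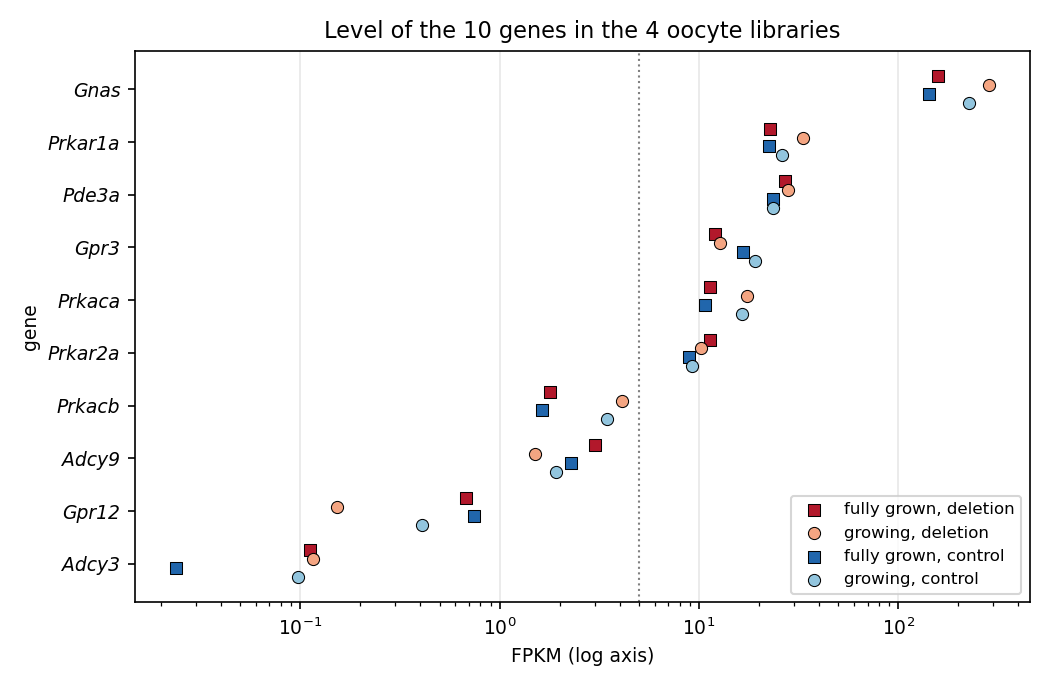
FPKM of each gene (rows, by mean level) in the 4 libraries on a log axis, each point being 1 library; squares are fully grown and circles growing oocytes, red shades are deletion and blue shades control, and the dotted line is at 5 FPKM. Gpr3 has both deletion points (11.97 and 12.8 FPKM) left of both control points (16.7 and 19.1 FPKM), while Gnas, Prkar1a, Prkaca and Prkacb have both fully grown points left of both growing points. The share of all genes with such separations was not counted.

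Of the receptors, Gpr3 carried nearly all of the RNA, and on the log2(FPKM + 1) scale its difference from control was the most negative of the 10 at both stages. Gpr3 (chromosome 4, minus strand, 132765254 to 132768451, mm9) was at 11.97 FPKM in fully grown deletion, 12.8 in growing deletion, against 16.7 in fully grown control and 19.1 in growing control. The 2 deletion libraries did not overlap with the 2 control libraries. How many of all genes separate in this way was not counted, so this and the like separations of other members are descriptions. The difference in log2(FPKM + 1), deletion minus control, was -0.54 in growing oocytes, where the deletion library had 67.0% of the control value, and -0.45 in fully grown oocytes, where it had 71.9%. Differences of this size in either direction were common: of the 8010 genes that reached 5 FPKM in a growing library, 19.3% differed by as much, as did 20.6% of the 7413 that reached it in a fully grown one. Between stages the Gpr3 difference was smaller, at -0.088 for fully grown minus growing deletion and -0.19 for fully grown minus growing control.

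Across genes the deletion difference went with transcript GC content, with a Spearman correlation of 0.37 in growing and 0.38 in fully grown oocytes. Gpr3 transcripts have a GC content of 61.5%, the highest of the 10 genes, so it lay against that trend. With the trend on GC and length removed, its difference was -0.90 in growing and -0.79 in fully grown oocytes. That trend also turned the sign of its small stage difference, to 0.35 in deletion and 0.20 in control oocytes.

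Gpr12, a paralog of Gpr3 that signals through the same G protein (chromosome 5, minus strand, 147393725 to 147395980, mm9), was at 0.681 FPKM in fully grown deletion, 0.153 in growing deletion, against 0.747 in fully grown control and 0.408 in growing control. All 4 values are low, and the size of a difference depends on the pseudocount: growing deletion minus control was -0.29 with a pseudocount of 1 and -1.005 with 0.1. Genes of like transcript length (within 20%) that were above 0 in only 1 library had a median of 0.069 FPKM (289 genes), which is near the lowest value such a gene can take. Gpr6, the remaining paralog, was listed at 0 in all 4 libraries. Gpr3 thus made up 94.6% to 98.8% of the summed FPKM of the 3 receptor genes.

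The G protein gene was the most abundant member and stood lower at the end of growth in both genotypes. Gnas encodes the alpha subunit of the stimulatory G protein (chromosome 2, plus strand, 174123359 to 174172243, mm9), and its locus also gives other imprinted transcripts that 1 FPKM value per gene does not separate. It was at 158 FPKM in fully grown deletion against 285 in growing deletion, and at 142 FPKM in fully grown control against 225 in growing control. Both fully grown libraries lay below both growing libraries. The difference in log2(FPKM + 1), fully grown minus growing, was -0.85 in deletion oocytes and -0.66 in controls, and 15.4% and 11.3% of the genes at the minimum differed by as much. These differences were -0.59 and -0.36 with the GC and length trend removed. Deletion minus control was 0.34 in growing and 0.15 in fully grown oocytes. The second of these was -0.047 without the trend. Against the summed FPKM of the inhibitory alpha subunits Gnai1, Gnai2 and Gnai3, which were picked after their values were seen, Gnas stood at a ratio of 2.26 in fully grown deletion, 4.05 in growing deletion, against 2.47 in fully grown control and 3.52 in growing control. In these pools, fewer oocytes with a transcript and less of it per oocyte cannot be told apart, and FPKM gives a share of the library, not an amount per oocyte.

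Neither cyclase among the members was abundant, and Adcy3 was close to the floor of the measurement. Both readings rest on the re-pairing, which is less certain for the cyclases than for the other members. Adcy9 (chromosome 16, minus strand, 4287544 to 4419587, mm9) was at 3.01 FPKM in fully grown deletion, 1.504 in growing deletion, against 2.29 in fully grown control and 1.91 in growing control. The deletion libraries held both its highest and its lowest value. Deletion minus control was therefore -0.22 in growing oocytes and 0.28 in fully grown oocytes, and fully grown minus growing was 0.68 in deletion and 0.18 in control oocytes, all as differences in log2(FPKM + 1).

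Adcy3 (chromosome 12, plus strand, 4134152 to 4213524, mm9) was at 0.112 FPKM in fully grown deletion, 0.116 in growing deletion, against 0.0237 in fully grown control and 0.0977 in growing control. For 114 genes of like length that were above 0 in only 1 library the median was 0.0331 FPKM, so the low value in fully grown control is at the floor and no difference is read from it. Adcy3 overlaps Cenpo on the opposite strand, which was at 29.0 to 36.2 FPKM, and whether the counting used strand is not given in the sources used here. Of the 10 cyclase genes, Adcy5 was the most abundant, with 4.75 FPKM in fully grown deletion, 4.14 in growing deletion, against 3.61 in fully grown control and 5.50 in growing control. It held 33.9% to 43.5% of the summed FPKM of the family, Adcy9 held 12.3% to 26.8%, and Adcy3 held 0.273% to 0.998%.

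The phosphodiesterase was the steadiest member across the 4 libraries. Pde3a encodes the enzyme that breaks down cyclic AMP in the oocyte and that cyclic GMP inhibits (chromosome 6, plus strand, 141197789 to 141447872, mm9). It was at 26.9 FPKM in fully grown deletion, 27.9 in growing deletion, against 23.4 in fully grown control and 23.6 in growing control. Both deletion values lay above both control values, and the highest was 1.19 times the lowest. Deletion minus control in log2(FPKM + 1) was 0.24 in growing and 0.19 in fully grown oocytes, sizes that 54.2% and 56.3% of the genes at the minimum reached. Fully grown minus growing was -0.053 in deletion and -0.0076 in control oocytes. With the GC and length trend removed these stage differences were -0.34 and -0.35. The gene Gm10400 inside Pde3a on the same strand was at most at 0.0301 FPKM.

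Pde3a was also the most abundant of the 16 phosphodiesterase genes that act on cyclic AMP. It held 36.3% of their summed FPKM in fully grown deletion, 40.8% in growing deletion, against 35.9% in fully grown control and 35.6% in growing control. By the mean of the 4 libraries its paralog Pde3b came next. Pde3b was at 13.6 FPKM in fully grown deletion, 7.998 in growing deletion, against 11.8 in fully grown control and 9.30 in growing control. Pde1b stood above Pde3b in both growing libraries and below it in both fully grown libraries. Of the 16 genes, 10 reached 1 FPKM in at least 1 library and 5 reached 5 FPKM.

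**Figure D2:**
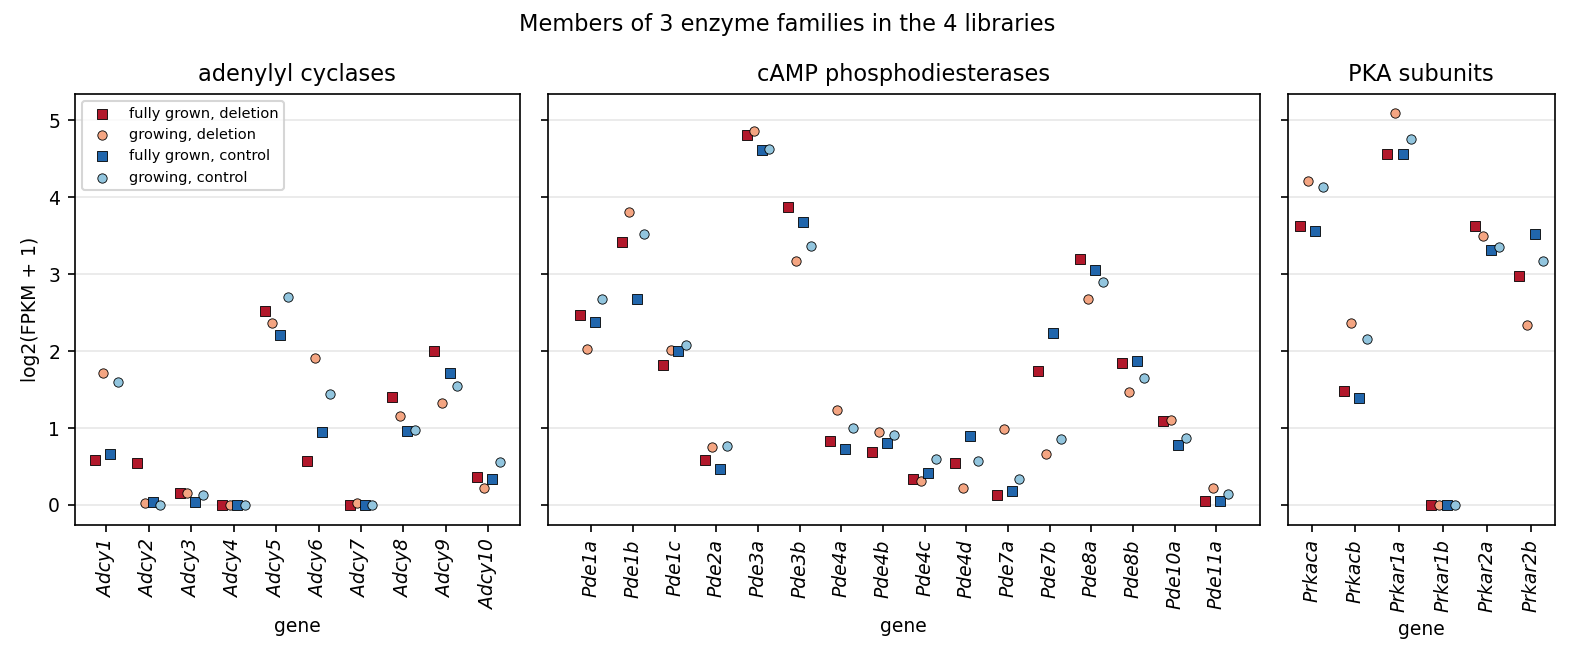
Level as log2(FPKM + 1) of each adenylyl cyclase, cyclic AMP phosphodiesterase and protein kinase A subunit gene (x axis) in the 4 libraries, with squares for fully grown and circles for growing oocytes, red shades for deletion and blue shades for control. Adcy5 leads the cyclases at 3.61 to 5.50 FPKM, Pde3a leads the phosphodiesterases at 23.4 to 27.9 FPKM, and Adcy4 and Prkar1b are listed at 0 throughout.

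Among the kinase subunits, both catalytic genes and the regulatory gene Prkar1a stood lower in both fully grown libraries than in both growing libraries, and Prkar2a did not. The share of all genes whose stages separate so was not counted, and nothing particular to these genes is read from it. Prkaca, the gene of catalytic subunit alpha (chromosome 8, plus strand, 86496876 to 86520344, mm9), was at 11.3 FPKM in fully grown deletion against 17.5 in growing deletion, and at 10.7 FPKM in fully grown control against 16.4 in growing control. The stages did not overlap, while deletion and control differed by 0.081 in growing and 0.071 in fully grown oocytes. Fully grown minus growing was -0.58 in deletion and -0.57 in control oocytes on the log2(FPKM + 1) scale, and -0.41 and -0.35 with the GC and length trend removed.

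Prkacb, the gene of catalytic subunit beta (chromosome 3, minus strand, 146392542 to 146433202, mm9), was at 1.796 FPKM in fully grown deletion against 4.13 in growing deletion, and at 1.63 FPKM in fully grown control against 3.46 in growing control. The stages did not overlap here either. The stage difference was -0.87 in deletion and -0.76 in control oocytes on the log2(FPKM + 1) scale, which understates the change of so low a gene: with a pseudocount of 0.1 it was -1.16 and -1.04. Prkaca held 80.9% to 86.8% of the summed FPKM of the pair.

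Prkar1a, the gene of type I regulatory subunit alpha (chromosome 11, plus strand, 109512262 to 109530962, mm9), was at 22.6 FPKM in fully grown deletion, 33.1 in growing deletion, against 22.5 in fully grown control and 26.0 in growing control. Both fully grown values lay below both growing values, and the growing deletion library was the highest. The differences in log2(FPKM + 1) were 0.34 for growing deletion minus control and 0.0087 for fully grown deletion minus control, with -0.051 for the second after median-ratio rescaling. Fully grown minus growing was -0.53 in deletion and -0.20 in control oocytes, and -0.63 and -0.26 with the GC and length trend removed. The larger differences all involve the growing deletion library.

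Prkar2a, the gene of type II regulatory subunit alpha (chromosome 9, plus strand, 108594473 to 108651842, mm9), was at 11.4 FPKM in fully grown deletion, 10.2 in growing deletion, against 8.93 in fully grown control and 9.19 in growing control. Both deletion values lay above both control values, by 0.31 in fully grown and 0.14 in growing oocytes on the log2(FPKM + 1) scale. Of the genes at the minimum, 35.4% differed by as much in fully grown and 71.8% in growing oocytes. The type II beta gene Prkar2b, which is not a member, ran the other way, with 6.84 FPKM in fully grown deletion against 10.51 in fully grown control, and 4.06 FPKM in growing deletion against 7.97 in growing control. How many of all genes separate as Prkar2a or Prkar2b do was not counted. Prkar1b was listed at 0 in all 4 libraries. The 4 regulatory genes summed to 40.8 to 47.4 FPKM and the catalytic genes to 12.4 to 21.6 FPKM. The ratio of regulatory to catalytic FPKM was 3.11 in fully grown deletion against 2.196 in growing deletion, and 3.39 in fully grown control against 2.17 in growing control.

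No member passed the rule of size in any of the 4 comparisons, which asked that either library reach 5 FPKM and that log2(FPKM + 1) differ by at least 1. The rule compares 2 libraries, not 2 conditions. Of all genes at that minimum, it was passed by 5.13% for growing deletion against growing control (2.62% higher and 2.51% lower) and by 2.17% for fully grown deletion against fully grown control (1.08% higher and 1.09% lower). Between stages it was passed by 11.4% for fully grown against growing deletion (2.7% higher and 8.75% lower) and by 4.18% for fully grown against growing control (1.11% higher and 3.07% lower). Only 6 of the 10 genes reached the minimum, in each comparison. Gpr12, Adcy3, Adcy9 and Prkacb did not, so they could not pass. At those shares, 0 of 6 is near the background.

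Over all 10 genes the median difference was 0.11 in growing oocytes and 0.10 in fully grown oocytes for deletion minus control, beside 0.080 and 0.037 over all genes at the minimum. Gpr12, Adcy3, Adcy9 and Prkacb, all under that minimum, are in the medians and sign counts of the 10. The sets set side by side are therefore unlike. For fully grown minus growing it was -0.070 in deletion and -0.14 in control oocytes, beside -0.071 and -0.058. With the GC and length trend removed, the median for fully grown deletion minus control was 0.023, beside 0.047 over all genes, so it no longer stood above that of all genes. The median for fully grown minus growing was then -0.19 in deletion and -0.22 in control oocytes, beside -0.072 and -0.050 over all genes. By sign alone, 7 of the 10 were above 0 for growing deletion minus control and 8 in fully grown oocytes, beside 58.5% and 55.0% of all genes at the minimum. For fully grown minus growing, 3 were above 0 in deletion and 2 in control oocytes, beside 44.1% and 43.9%. These counts include Gpr12 and Adcy3, whose values are too low to order the libraries.

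**Figure D3:**
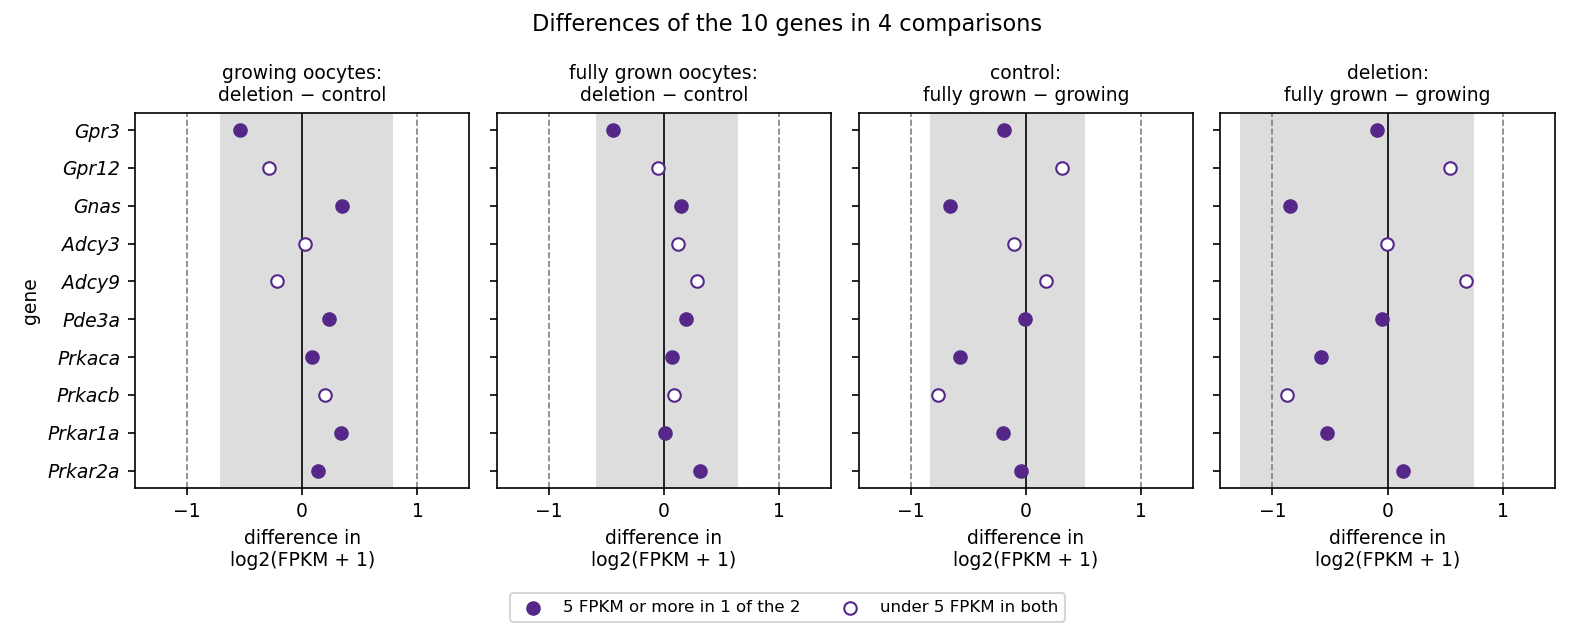
Difference in log2(FPKM + 1) of each gene (rows) in the 4 comparisons; filled points reached 5 FPKM in 1 of the 2 libraries, open points did not, the grey band spans the 5th to 95th percentile of all genes at the minimum and dashed lines mark a difference of 1. The filled points lie inside the band in each panel, with Gpr3 lowest in both deletion panels (-0.54 and -0.45) and, among filled points, Gnas lowest in both stage panels (-0.66 and -0.85).

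The deletion differences at the 2 stages share no library. Of the 8 members that reached 1 FPKM, Gpr3 stood below control at both, Adcy9 had opposite signs, and the other 6 stood above control at both, by 0.0087 (Prkar1a, fully grown) to 0.34 (Gnas and Prkar1a, growing). Of all genes at the minimum, 58.5% stood above control in growing and 55.0% in fully grown oocytes. The share above control at both was not counted, so these counts are a description. Gpr12 (-0.29 in growing and -0.056 in fully grown oocytes) and Adcy3 (0.024 and 0.12) were under 1 FPKM in all 4 libraries, and no order is read from them. Whether the deletion difference depends on stage could not be tested with 1 library a group. After median-ratio rescaling Prkar1a had opposite signs too. Without the GC and length trend Gnas and Prkaca did.

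**Figure D4:**
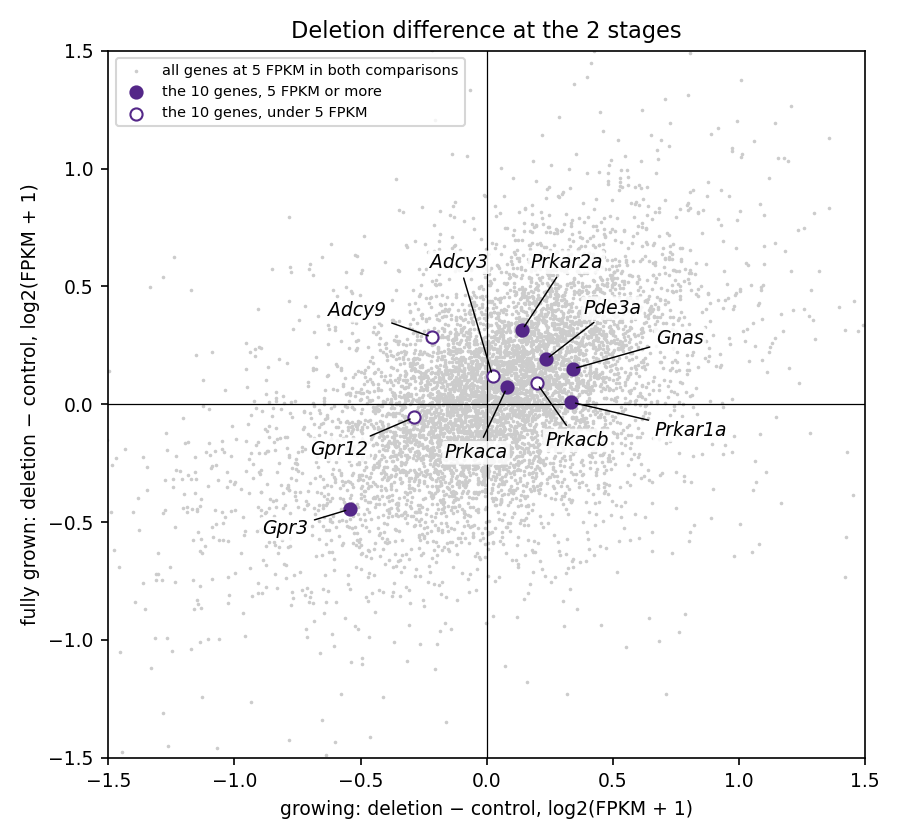
Deletion minus control in log2(FPKM + 1), in growing oocytes (x axis) against fully grown oocytes (y axis), for the 10 genes (purple, open under 5 FPKM) and the 7188 genes at 5 FPKM in both comparisons (grey, of which 79 lie outside the axes). Gpr3 lies at -0.54 and -0.45, in the lower left, and Adcy9 lies alone in the upper left at -0.22 and 0.28.

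The rest of the pathway was read in 11 lists with 89 further genes. For growing deletion against growing control 43 of the 89 reached the minimum and 0 passed the rule in either direction, and in fully grown oocytes 39 did and 0 passed. Of all genes at the minimum, 5.13% passed in growing and 2.17% in fully grown oocytes. Over growth, 41 reached the minimum in each genotype. In the deletion 0 were higher and 3 lower (Wee1, Akap13 and Impdh2), and in controls 0 were higher and 1 lower (Impdh2). Of all genes at the minimum 8.75% were lower by the rule in the deletion and 3.07% in controls, so these counts are near the background and say nothing particular of the pathway. Impdh2, an enzyme of guanine nucleotide synthesis, was at 8.13 FPKM in fully grown deletion against 22.9 in growing deletion, and at 8.12 FPKM in fully grown control against 18.9 in growing control, differences of -1.39 and -1.13. Wee1, a kinase that inhibits CDK1, was at 5.41 FPKM in fully grown deletion against 21.3 in growing deletion (-1.80), and at 6.63 FPKM in fully grown control against 13.6 in growing control (-0.93). Wee2, the gene of WEE1B, was far more abundant and not lower in fully grown oocytes. It was at 233 FPKM in fully grown deletion against 192 in growing deletion, and at 212 FPKM in fully grown control against 188 in growing control. Akap13, which anchors protein kinase A, was at 5.63 FPKM in fully grown deletion against 12.9 in growing deletion (-1.07), and at 5.604 FPKM in fully grown control against 8.45 in growing control (-0.52).

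Of the most abundant partners in each list, Gng5, Rgs2, Gja4 and Ccnb1 had higher means than every member, and Pkig, Akap12 and Crebbp had lower means than Gnas. None of these passed the rule. Gng5, a G protein gamma subunit, was at 582.3 FPKM in fully grown deletion, 709 in growing deletion, against 438 in fully grown control and 451 in growing control. Rgs2, a regulator that limits G protein signalling, was at 260 FPKM in fully grown deletion, 241 in growing deletion, against 332 in fully grown control and 256 in growing control. Pkig, which encodes an inhibitor of the kinase's catalytic subunit, was at 109 FPKM in fully grown deletion against 73.5 in fully grown control, and at 92.1 FPKM in growing deletion against 76.5 in growing control. Its deletion values thus lay above both controls, a separation whose share over all genes was not counted. Gja4, the connexin of the gap junctions between oocyte and granulosa cells, was at 357 FPKM in fully grown deletion against 463 in fully grown control, and at 449 FPKM in growing deletion against 464 in growing control. Of the anchoring proteins Akap12 was the most abundant, at 50.9 to 74.4 FPKM over the 4 libraries. The cyclin gene Ccnb1 led the cell cycle genes at 309 to 481 FPKM, and the coactivator gene Crebbp led the CREB list at 19.3 to 25.2 FPKM.

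The genes whose profile over the 4 libraries was most like that of Gpr3, by Euclidean distance between centred log2(FPKM + 1) values among 4048 genes at 20 FPKM or more in 1 library, were Gstm5 (0.025), Ppp2r2b (0.069) and Hpcal1 (0.084). Gstm5 was at 243 FPKM in fully grown deletion, 261 in growing deletion, against 328 in fully grown control and 372 in growing control. There were 37 genes within 0.2 of Gpr3, which itself peaked at 19.1 FPKM, just under that limit. For Pde3a, whose profile is nearly flat, 528 genes lay within 0.2, with Eif2a (0.026), Nedd8 (0.030) and Rai12 (0.033) the closest. With 4 points a profile holds little, and likeness here is a description.

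Markers of other cell types were low beside the oocyte markers, but not beside every member. The most abundant of them, Cyp19a1 and Pecam1, had means of 15.3 and 13.9 FPKM, and Gpr3 had a mean of 15.1 FPKM. All other markers of those cell types had lower means. Whether RNA of these markers came from other cells or from the oocytes was not tested. The 13 granulosa and cumulus markers summed to 31.4 FPKM in fully grown deletion, 18.05 in growing deletion, against 28.9 in fully grown control and 36.1 in growing control. Cyp19a1, the aromatase gene, made up 16.8 FPKM of it in fully grown deletion, 7.75 in growing deletion, against 19.0 in fully grown control and 17.7 in growing control, and it passed the rule of size as lower for growing deletion against growing control (-1.10, and -0.93 with the GC and length trend removed) and as higher for fully grown against growing deletion (1.03). Inha, an inhibin subunit gene of the same list that was named after its values were seen, was at 4.99 FPKM in fully grown deletion and 2.16 in growing deletion, against 2.40 in fully grown control and 6.53 in growing control. It passed as lower for growing deletion against growing control (-1.25, and -1.54 with the trend removed) and for fully grown against growing control (-1.15, and -0.77 with the trend removed). Nr5a2 was at 3.62 to 5.87 FPKM over the 4 libraries. The markers Amh and Foxl2 were at 0.367 FPKM or less in every library. This sum was lower in growing deletion than in growing control, as Gpr3 was, and higher in fully grown deletion than in fully grown control, where Gpr3 was lower, and its part in the Gpr3 difference was not tested. The 8 theca and stroma markers summed to 1.17 to 1.53 FPKM, with Dcn and Cyp11a1 the most abundant. The 7 blood, immune and endothelial markers summed to 13.4 to 20.2 FPKM, nearly all of it Pecam1 and then Cd68, while Hba-a1, Hbb-b1 and Cdh5 were listed at 0.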

How the data were processed

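RNA of 10 oocytes per library was amplified by Smart-seq2 from an oligo-dT primer and made into libraries with Tn5 transposase, per the labels' protocols. Per the submitters' processing notes, the tools were Cufflinks 2.2.1, Bowtie2 2.1.0, TopHat2 2.0.11 and CASAVA 1.8 and the build was mm9, with no roles or settings listed. Gene models, strand and the treatment of reads with several matches were not given in those notes. The values deposited by the authors are FPKM, and the 4 per-sample tables were identical to the whole-series table. Symbols were re-paired with values in byte order: 4113 rows keep their symbol, 19122 take another, and the median of the 12 oocyte markers is 6.82 FPKM as deposited and 1950.0 after re-pairing. Depth per sample is unknown, so no interval or detection limit is given. Differences are in log2(FPKM + 1), and genes past the size rule are counts with no test. GC content and length are medians over GENCODE M21 transcripts, found for 22780 symbols, and their trend was removed by a quadratic fit. The code was tested on simulated data (Python 3.11.15, pandas 2.3.3). Alternatives were a pseudocount of 0.1, a minimum of 1 FPKM or none, median-ratio rescaling, trend removal and the deposited pairing. The 10 genes and the lists were chosen with earlier results of these data known. Named are the members, Dcaf13, pathway genes past the rule, the most abundant non-member of each list, 2 markers of each other cell type and 3 like profiles each for Gpr3 and Pde3a; others are illustrations picked after their values were seen, among them overlapping genes and markers listed near 0.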

Additional observations from a re-analysis of the deposited data

Results flagged for a closer look

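The deletion difference of Adcy9 had opposite signs at the stages, so that fully grown deletion minus control exceeded growing deletion minus control by 0.50 in log2(FPKM + 1). The stage difference of Prkar2a had opposite signs in the genotypes, at 0.14 in deletion and -0.038 in control oocytes, which differ by 0.17. With the GC and length trend removed both were below 0, at -0.037 in deletion and -0.19 in control oocytes. With 1 library a group neither difference was tested. Adcy9 was under 5 FPKM in all 4 libraries, and its re-pairing is less certain than that of most members.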

How the results depend on the processing

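No paired analysis was possible because each group has 1 library and no result comes from a test, and no library could be left out. The number of members past the size rule was 0 in the 4 comparisons under each alternative run. This was partly set in advance: Gpr12 and Adcy3, under 1 FPKM throughout, cannot differ by 1 at a pseudocount of 1. Prkacb and Gpr12 had differences past 1 at a pseudocount of 0.1 but stayed under the minimum. The minimum and the pseudocount were not changed together. The median difference of the 10 genes moved by less than 0.1 under each alternative, except for fully grown minus growing deletion, where it was -0.19 with the GC and length trend removed, against -0.070. Smaller shifts still changed it by over 1.5 times: with the trend removed it was 0.023 for fully grown deletion minus control and -0.22 for fully grown minus growing control, and after median-ratio rescaling 0.065 for growing and 0.069 for fully grown deletion minus control. The number of members with opposite deletion differences at the stages was 1 in the reading given, 3 with the trend removed, 2 after median-ratio rescaling and 1 at a pseudocount of 0.1, alternatives added after the data were seen. The cause was not tested. Of the 40 differences of single members, 8 changed sign with the trend removed and 28 moved by 0.1 or more. With a pseudocount of 0.1, 10 moved by that much and 0 changed sign. After median-ratio rescaling 0 did and 2 changed sign. Under the deposited pairing the members take the values of other genes, so that its values bear on the pairing and not on the pathway. Depth is unknown, and values under 1 FPKM set no order between libraries.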

Other observations

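Read against the symbols as deposited, the rows of the 10 genes would have had means of 0.742 FPKM for Gpr3, 0.541 for Gnas, 40.2 for Adcy3, 0.949 for Pde3a, 38.3 for Prkaca and 9.93 for Prkar1a, the last being the value that re-pairing gives to Prkar2a. The means of the remaining members would have been 1.31 for Adcy9, 0.736 for Prkacb, 0.107 for Prkar2a and 0 for Gpr12. In that reading Adcy3 is the highest of the 10 genes and Gpr12 the lowest.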
